A study of Rattus norvegicus with 8 samples.

Results

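The genes described here are 9 complement components and regulators, C3, C4a, C4b, Cfb, C2, C1qa, C1s, Cfi and Cd46, in cultured hippocampal neurons with lowered Sirt6. They were chosen by their measured values in this same comparison, so their differences between the groups are given as a description, with no test. Every non-control probe that the array files name for one of these genes was taken, which gave 13 probes of 45598. All 13 were well above background often enough to be kept, beside 28614 kept probes in all, which stand for 22588 genes.

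Neurons came from newborn Wistar rats at postnatal day 0 to 1 and were infected on day 3 in culture with lentiviral vectors at a multiplicity of infection of 6. RNA was taken 7 days later, at 10 days in vitro. The control group has 4 samples with a scrambled shRNA, and the knockdown group has 4 samples with an shRNA against rat Sirt6, which encodes a NAD-dependent deacetylase. Both groups received a virus, and each is represented by 1 shRNA, so what else either vector does is part of the comparison. Nothing in the labels tells whether the replicates are separate cultures or separate animals. The p-values therefore cover the spread between samples, which may be only technical.

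Complement is a cascade of plasma and locally made proteins that tags surfaces and recruits phagocytes. The classical route starts when C1q binds a target and its proteases C1r and C1s cut C4 and C2. The alternative route is carried by factor B and feeds on C3 that is already activated. Both routes build convertases that cut C3, while factor I, with cofactors such as CD46, destroys the active fragments of C3 and C4. In the brain astrocytes are a known source of C3 and C4 and microglia of C1q, and C1q and C3 are known for marking synapses that microglia remove.

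Levels are log2 processed signals minus the array's own 75th percentile, and levels of different probes are not comparable with each other. The 8 arrays were alike in brightness, with 60.4% to 65.3% of probes well above background and the 75th percentile at a log2 signal of 8.29 to 8.42. Sirt6 itself lay at 2.02 to 2.10 with the scrambled shRNA and at 0.46 to 0.58 with its own shRNA (log2 difference -1.53 ± 0.040 SE, limma adjusted p = 5.54e-06). All 10 neuronal markers examined were measured, with Rbfox3, a nuclear protein of mature neurons, at 5.05 to 5.19 in the scrambled arrays and Map2, of dendrites, at 3.13 to 3.27. All 12 astrocyte and all 15 microglia markers examined were also above background, so the RNA labelled as neuronal held glial transcripts. On the single slide all scrambled arrays sat in row 1 and all Sirt6 shRNA arrays in row 2, and the effects of row and group cannot be told apart. In both rows columns 1 to 4 held replicates 1 to 4, so replicate number and slide column cannot be told apart either.

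Across the 9 genes, those that drive activation were lower with the Sirt6 shRNA and the regulators Cfi and Cd46 were higher. In 8 probes (for C3, C4, Cfb, C2 and C1s) all 4 Sirt6 shRNA arrays lay below all 4 scrambled arrays. The 3 C4 probes among them are named for C4a or C4b in the files but cannot tell these genes apart. In 2 probes, of Cfi and Cd46, all 4 Sirt6 shRNA arrays lay above all 4 scrambled ones. The remaining 3 probes, for C1qa and 2 for Cd46, overlapped between the groups. The same 8 probes passed limma's adjusted threshold of 0.05 downward and the same 2 upward. For all kept probes, the groups lay apart downward in 15.9% and upward in 16.2%, and 14.3% were called lower and 14.1% higher. Since the genes were selected on this contrast, nothing is read from their counts against those shares.

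**Figure D1:**
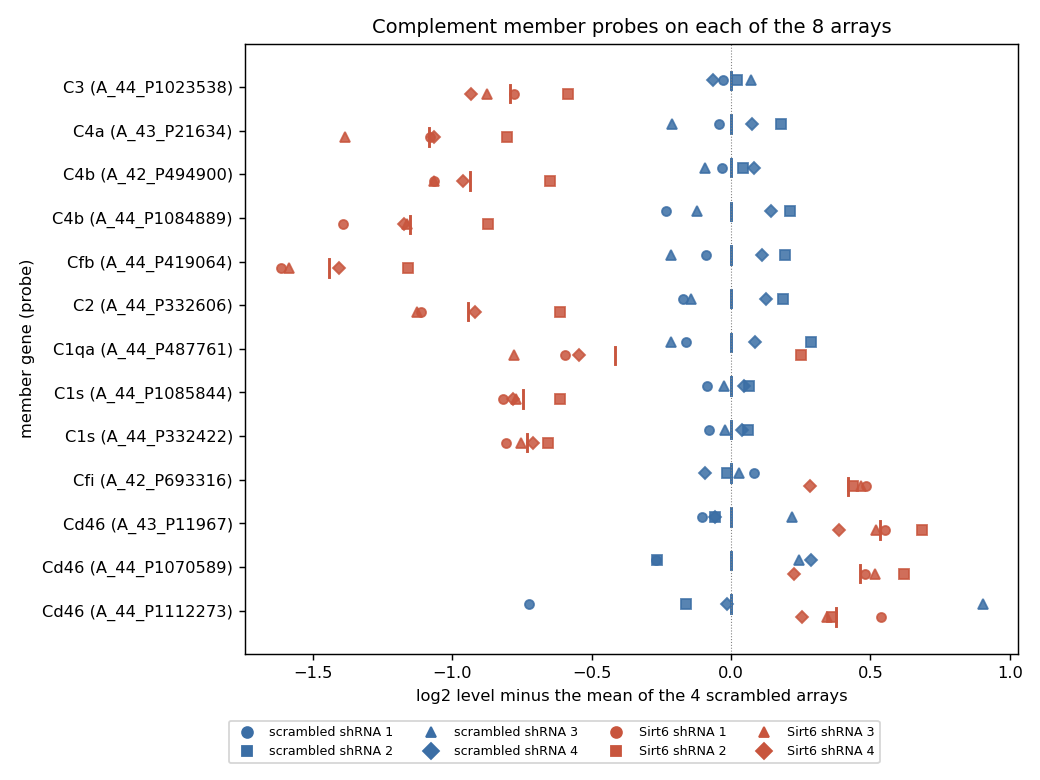
Each row is 1 probe of a complement gene and each symbol 1 array, plotted as its log2 level minus the mean of the 4 scrambled arrays; blue symbols are scrambled and red symbols Sirt6 shRNA arrays, shapes give the replicate number, and short vertical bars are group means. The red symbols of C3, C4a, C4b, Cfb, C2 and C1s all lie left of the blue ones, those of Cfi and 1 Cd46 probe lie right, and in all 8 probes that lie left the red square, Sirt6 shRNA replicate 2, is the one nearest the scrambled arrays.

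C3 is the protein on which all routes of activation meet. Its probe (A_44_P1023538, placed on the unassigned chromosome Un at 64513437 to 64513496, minus strand, in build rn4) had levels of 5.72, 5.77, 5.82 and 5.69 in scrambled replicates 1 to 4. In Sirt6 shRNA replicates 1 to 4 the levels were 4.97, 5.16, 4.87 and 4.82. The groups were separated by a gap of 0.52 on the log2 scale, and the spread was wider with the Sirt6 shRNA (SD 0.15, n = 4) than with the scrambled shRNA (SD 0.058, n = 4). The difference was -0.79 ± 0.077 (SE), which left 57.8% of the scrambled level. As deposited, the processed signals were 16505 to 18782 against 9124 to 11725, and no spot of any of the 13 probes was saturated on any array.

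The C3 promoter is shown because C3 is a textbook target of the inducible factors NF-kB and C/EBP. Promoters of 6 of the 9 genes were matched in RefSeq (rat build GRCr8), as windows of 300 bases of which 250 lie before the start. The stretch of C3 below runs from -110 to -51 relative to the start, on chr9:2201390-2201449, minus strand. Capitals mark letters that match the NF-kB motif (GGG, 5 bases of any kind, then CC) and the C/EBP motif TTGCNNAA, each searched on both strands.
C3 promoter: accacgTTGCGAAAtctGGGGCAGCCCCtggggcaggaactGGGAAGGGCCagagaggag
The first run of capitals is the C/EBP match, the next holds 2 overlapping NF-kB matches, and the last is another NF-kB match. The C/EBP letters occur in 10.6% of 33469 promoter windows of the same length and the NF-kB letters in 47.3%, so an NF-kB match is common. Of the other windows, C1qa held 2 NF-kB matches and 1 match to the gamma-activated site TTCNNNGAA (8.87% of windows), and Cd46 held 2 NF-kB matches and 1 match to AP-1, TGANTCA (7.33%). C4a and C4b held 1 NF-kB match each and Cfi none of the 6 motifs. The interferon-stimulated response element, 2 copies of GAAA spaced by 2 bases (3.92%), and the TATA box TATAAA (14.2%) had no match in any of the 6 windows. These are matches of letters, not sites.

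C4 is the substrate that C1s cuts first, and its larger fragment C4b joins C2 in the classical convertase. The rat genome holds the near-identical genes C4a and C4b, and the array has 3 probes between them. All 3 list a RefSeq transcript of C4a and one of C4b, so none can assign signal to 1 gene. Their sequences are printed because they sample different places in the transcript and still gave like differences.
C4a A_43_P21634: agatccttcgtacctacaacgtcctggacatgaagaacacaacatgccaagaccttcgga
C4b A_42_P494900: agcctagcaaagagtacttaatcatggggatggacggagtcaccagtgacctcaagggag
C4b A_44_P1084889: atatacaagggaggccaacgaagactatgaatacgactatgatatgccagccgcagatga
In rn4 the files place the first on chr20:4116778-4117756, the second on chr20:4315443-4315502 and the third on chr20:4313195-4313336, all on the plus strand. The spans of A_43_P21634 and A_44_P1084889 are longer than 60 bases, so those probes do not match 1 unbroken run of the genome. No stretch longer than 8 bases is shared between any pair of them.

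The probe named C4a had levels of -1.65, -1.43, -1.82 and -1.53 in the scrambled arrays and -2.68, -2.41, -2.99 and -2.67 in the Sirt6 shRNA arrays. The difference was -1.08 ± 0.13 (SE), or 47.2% of the scrambled level. For the brighter C4b probe (A_42_P494900) the levels were 1.56, 1.64, 1.50 and 1.68 against 0.53, 0.94, 0.53 and 0.63. Its 2 groups stood 0.56 apart, and the difference was -0.94 ± 0.097 (SE). The other C4b probe (A_44_P1084889) had levels of -1.75, -1.30, -1.64 and -1.38 against -2.91, -2.39, -2.68 and -2.69, a difference of -1.15 ± 0.13 (SE). On each of the 3 probes Sirt6 shRNA replicate 2 had the highest level of its group and no level reached the scrambled range. The 2 dim probes depended on background handling: with normexp correction at an offset of 50, which compresses low signals, they gave -0.59 (A_43_P21634) and -0.66 (A_44_P1084889).

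The promoters of C4a and C4b are likewise close copies, with 279 of 291 aligned bases identical (95.9%). The stretch below holds 8 of the differences, in capitals, for C4a from -149 to -84 (GRCr8, chr20:4010208-4010273, plus strand) and for C4b from -154 to -89 (chr20:4201825-4201890, plus strand).
C4a promoter: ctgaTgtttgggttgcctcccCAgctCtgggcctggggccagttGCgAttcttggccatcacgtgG
C4b promoter: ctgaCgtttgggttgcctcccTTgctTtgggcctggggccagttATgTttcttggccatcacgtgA
The arrays do not assign RNA to either promoter, since both transcripts are listed for every C4 probe, and they measure RNA level, not promoter activity.

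Factor B, from Cfb, is the protease subunit of the alternative convertase. Its levels were 4.41, 4.69, 4.29 and 4.61 in the scrambled arrays and 2.88, 3.34, 2.91 and 3.10 in the Sirt6 shRNA arrays. The gap between the groups was 0.95, wider than the whole spread within either. The difference of -1.44 ± 0.13 (SE) left 36.8% of the scrambled level, the lowest percentage among the 13 probes. C2 is the matching protease subunit of the classical convertase and the gene next to Cfb. C2 had levels of 2.17, 2.53, 2.20 and 2.47 against 1.23, 1.73, 1.22 and 1.43, a difference of -0.94 ± 0.13 (SE), or 52.1% of the scrambled level. In both genes scrambled replicates 2 and 4 were the higher pair of their group, and replicate 2 was the highest of the Sirt6 shRNA group. The files place the probes on chr20:4071504-4071563 (C2) and chr20:4076976-4077119 (Cfb) in rn4, on the plus strand.

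C1s is the protease of the C1 complex that cuts C4 and C2. Its 2 probes overlap along the transcript and share 49 of 60 bases, shown in capitals, so they are repeat readings of 1 place and not separate evidence.
C1s A_44_P1085844: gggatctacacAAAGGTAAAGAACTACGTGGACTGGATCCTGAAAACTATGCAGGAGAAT
C1s A_44_P332422: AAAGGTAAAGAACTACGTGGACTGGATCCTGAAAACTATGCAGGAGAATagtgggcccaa
They lie on chr4:160736736-160736795 and chr4:160736725-160736784 in rn4, minus strand. The first had levels of 3.18, 3.33, 3.24 and 3.32 in the scrambled arrays and 2.45, 2.66, 2.50 and 2.49 in the Sirt6 shRNA arrays. The second had 3.23, 3.37, 3.28 and 3.34 against 2.50, 2.65, 2.55 and 2.60. The groups were tight on both probes and did not overlap. The differences were -0.75 ± 0.058 (SE) and -0.73 ± 0.049 (SE), and 60.2% of the scrambled level was left on the second.

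C1r, the partner protease that activates C1s and the gene beside it on chromosome 4, was not among the chosen genes and was tested. The list that holds C1r was itself drawn up with earlier results of these data known, which the p-value does not allow for. The level of C1r was 3.30 to 3.39 in the scrambled arrays and 2.62 to 2.81 in the Sirt6 shRNA arrays, with no overlap. It fell by 0.65 ± 0.050 (SE) on the log2 scale (limma adjusted p = 9.70e-05) and was called whichever array was left out.

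C1qa encodes the A chain of C1q, the part that recognises targets. The array carries 10 spots of its probe, and the SD of those spots within an array was only 0.020 to 0.037 on the log2 scale. Between arrays the levels ranged far more. They were 2.15, 2.60, 2.10 and 2.40 in the scrambled arrays and 1.72, 2.56, 1.53 and 1.77 in the Sirt6 shRNA arrays. Replicate 2 of the Sirt6 shRNA group lay near the top of the scrambled range, while the other 3 lay below all scrambled arrays. The difference was -0.42 ± 0.23 (SE) with all arrays and -0.64 without that array.

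The genes of the other C1q chains, C1qb and C1qc, lie next to C1qa on chromosome 5 and were tested. C1qb had levels of 3.19, 3.62, 3.06 and 3.39 against 2.95, 3.87, 2.80 and 3.03. C1qc had 0.20, 0.68, 0.16 and 0.43 against 0.00, 0.90, -0.18 and -0.01. For both, Sirt6 shRNA replicate 2 was the highest of all 8 arrays. Neither passed the threshold with all arrays (C1qb -0.15 ± 0.24 SE, limma adjusted p = 0.668; C1qc -0.19 ± 0.24 SE, limma adjusted p = 0.590). Without Sirt6 shRNA replicate 2, C1qc was lower by limma (-0.43, adjusted p = 0.0478), while C1qb missed the threshold (-0.39, limma adjusted p = 0.0722). No other omission of 1 array gave a call for either gene (lowest limma adjusted p = 0.511 for C1qc and 0.540 for C1qb, both without scrambled replicate 3).

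Microglia markers moved across the arrays beside the C1q genes. The mean deviation of the 15 markers from their 8-array means was 0.10, 0.45, 0.057 and 0.31 in the scrambled arrays. In the Sirt6 shRNA arrays it was -0.37, 0.33, -0.53 and -0.34, with replicate 2 again inside the scrambled range. Of the 15 markers 4 were called lower and 0 higher, or 26.7%, beside 30.4% of all genes tested (14.8% lower and 15.6% higher). Tmem119, a membrane protein of resident microglia, fell by 0.89 ± 0.18 (limma adjusted p = 0.0082). P2ry12, the purinergic receptor of surveying microglia, fell by 0.68 ± 0.20 (limma adjusted p = 0.0365) and Csf1r, the receptor they need to survive, by 0.57 ± 0.18 (limma adjusted p = 0.0458), each called in 2 of the 8 fits without 1 array (highest limma adjusted p = 0.0914 and 0.112). Cx3cr1, the fractalkine receptor, was at -0.02 ± 0.13 (limma adjusted p = 0.905), and Aif1 missed the threshold (-0.58 ± 0.23, limma adjusted p = 0.0935). Without Sirt6 shRNA replicate 2, the highest array of its group, 13 of the 15 markers were called lower, as were 3309 of 22588 genes. Leaving out replicate 2 of both groups, a choice made after seeing the data, gave 11 markers lower, beside 2620 genes. The part of microglia in the differences of the complement genes was not tested, and in RNA of whole cultures fewer cells of a type and less RNA per cell cannot be told apart.

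**Figure D2:**
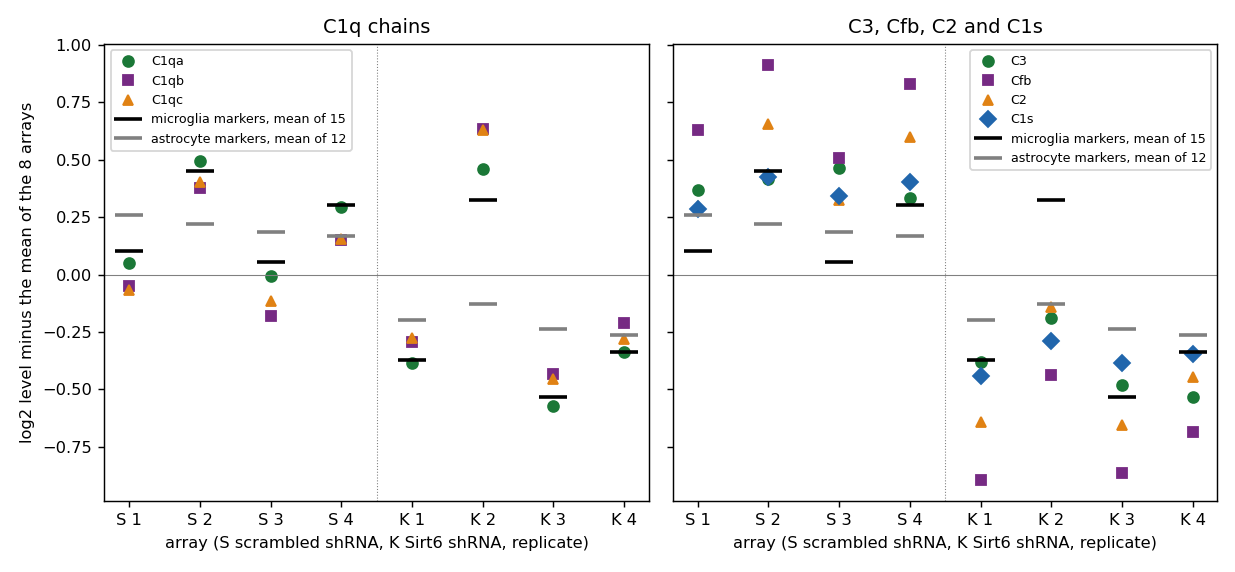
Both panels plot log2 level minus the mean of the 8 arrays, for scrambled (S) and Sirt6 shRNA (K) replicates; the left panel has the 3 C1q chain genes and the right panel C3, Cfb, C2 and C1s, and horizontal dashes give the means of 15 microglia and 12 astrocyte markers. On K 2 the C1q genes and the microglia mean (0.33) stand within or above the scrambled range, while C3, Cfb, C2, C1s and the astrocyte mean (-0.13) stay below it.

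The mean of the astrocyte markers did not overlap between the groups, and 10 of the 12 markers singly lay apart downward (15.9% of all kept probes did). The mean deviation of the 12 markers was 0.17 to 0.26 in the scrambled arrays and -0.26 to -0.13 in the Sirt6 shRNA arrays. Of the 12, 9 were called lower and 0 higher, beside 14.8% and 15.6% of all genes tested. With replicate 2 of both groups left out, 7 of the 12 were called lower, beside 2620 of 22588 genes. S100b, a calcium-binding protein, fell by 1.42 ± 0.078 (limma adjusted p = 3.06e-05), Gfap, the intermediate filament of astrocytes, by 0.71 ± 0.069 (limma adjusted p = 0.00029) and Gja1, the gap junction protein connexin 43, by 0.63 ± 0.062 (limma adjusted p = 0.00029). The water channel gene Aqp4 fell by 0.21 ± 0.063 (limma adjusted p = 0.0389, called in 1 of 8 fits without 1 array, highest limma adjusted p = 0.0955) and the glutamate transporter gene Slc1a3 by 0.22 ± 0.046 (limma adjusted p = 0.0097). The part of astrocytes in the complement differences was not tested.

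Marker by marker, other cell types were less uniform. The counts that follow stand beside all genes tested, of which 14.8% were called lower and 15.6% higher. Of 10 neuronal markers 3 were called higher and 1 lower: Tubb3 rose by 0.32, Rbfox3 by 0.25 and Map2 by 0.16, and Stmn2 fell by 0.22. Map2 was called in 4 of the 8 fits without 1 array (highest limma adjusted p = 0.0773). Of 8 oligodendrocyte markers 3 were lower and 0 higher: Mbp fell by 1.31, Olig1 by 0.37 and Cnp by 0.21, the last called in 2 of 8 such fits (highest limma adjusted p = 0.0855). As with astrocytes, the mean of the oligodendrocyte markers did not overlap between the groups (0.035 to 0.19 against -0.14 to -0.073). Singly, 3 of the 8 lay apart downward and 2 upward, beside 15.9% and 16.2% of all kept probes. Of 7 fibroblast markers 4 were higher and 1 lower: Col1a2 rose by 0.36 and Col3a1 by 0.33, and Col6a2 fell by 0.35. With replicate 2 of both groups left out, 2 fibroblast markers were called higher and 1 lower. Kdr was the 1 of 4 endothelial markers called, higher by 0.41. Neither of the 2 choroid plexus markers measured was called.

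Cfi encodes factor I, the protease that inactivates C3b and C4b. Its levels were -0.81, -0.91, -0.87 and -0.99 in the scrambled arrays and -0.41, -0.45, -0.43 and -0.61 in the Sirt6 shRNA arrays. The groups stood 0.20 apart and the difference was 0.42 ± 0.060 (SE), or 134% of the scrambled level. Sirt6 shRNA replicate 2 lay within the range of its group here. The probe lies on chr2:227324985-227325044 in rn4, plus strand.

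Cd46 encodes a membrane cofactor for factor I and has 3 probes on chromosome 13 in rn4, minus strand. The brightest (A_43_P11967, chr13:110995983-110996923) is the one matched to a curated transcript and is printed for that reason.
Cd46 A_43_P11967: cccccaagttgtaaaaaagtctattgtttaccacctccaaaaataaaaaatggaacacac
Its levels were -2.59, -2.54, -2.26 and -2.54 in the scrambled arrays and -1.93, -1.79, -1.96 and -2.09 in the Sirt6 shRNA arrays. The gap was 0.17, with scrambled replicate 3 nearest to the Sirt6 shRNA arrays, and the difference was 0.54 ± 0.089 (SE). The remaining probes list predicted transcripts only. A_44_P1070589 had levels of -3.54, -3.53, -3.03 and -2.98 against -2.79, -2.65, -2.75 and -3.04, which overlapped, with a difference of 0.46 ± 0.16 (SE). A_44_P1112273 had levels of -5.45, -4.89, -3.82 and -4.74 against -4.18, -4.36, -4.38 and -4.47 and was well above background on 3 of the 4 scrambled arrays, with a difference of 0.37 ± 0.30 (SE). All 3 are dim. With normexp correction they gave 0.30, 0.12 and -0.02 in that order, so the direction of the dimmest flipped.

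The rest of the pathway was read from a list of 52 other complement genes. That list was drawn up with earlier results of these data known, so nothing is read from its share of calls against that of all genes. Of these, 33 were measured, 16 were below the filter (among them the terminal genes C8a, C8b and C9, the lectin genes Mbl1, Mbl2 and Masp2, and C4bpa) and 3 had no probe under the name used. Of the 33, limma called 9 lower and 6 higher, which is 45.5% against 30.4% for all genes tested (14.8% of all genes were called lower and 15.6% higher; the higher share of the calls was 51.3%, against 35.2% with median centring and 64.0% with spike-in scaling). Their median log2 difference was -0.070, beside 0.021 over all genes. The calls were therefore split in direction. The 9 called lower, and so the 45.5%, include the receptor gene C5ar2. It met the filter through the scrambled arrays alone, and its call is no support for a difference. Without Sirt6 shRNA replicate 2, 14 were lower and 7 higher (3309 and 3278 of all 22588 genes) and the median was -0.21. Among the genes called lower in that fit and not in the full one were C1qc (-0.43), Cfd (-0.33), Itgam (-0.75) and Itgb2 (-0.54), and Cd55 (0.39) was added to those called higher. Itgam and Itgb2 are the chains of complement receptor 3, which microglia carry. With scaling on spike-in probes, a choice made after seeing the data, 5 were lower and 3 higher and the median was 0.0040, so its sign flipped. The sign flipped too without the filter on dim probes, where the median was 0.079 over 49 genes (0.093 over all genes), with 8 lower and 4 higher. With all 8 arrays required to be above background, 8 of 31 were lower and 7 higher.

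**Figure D3:**
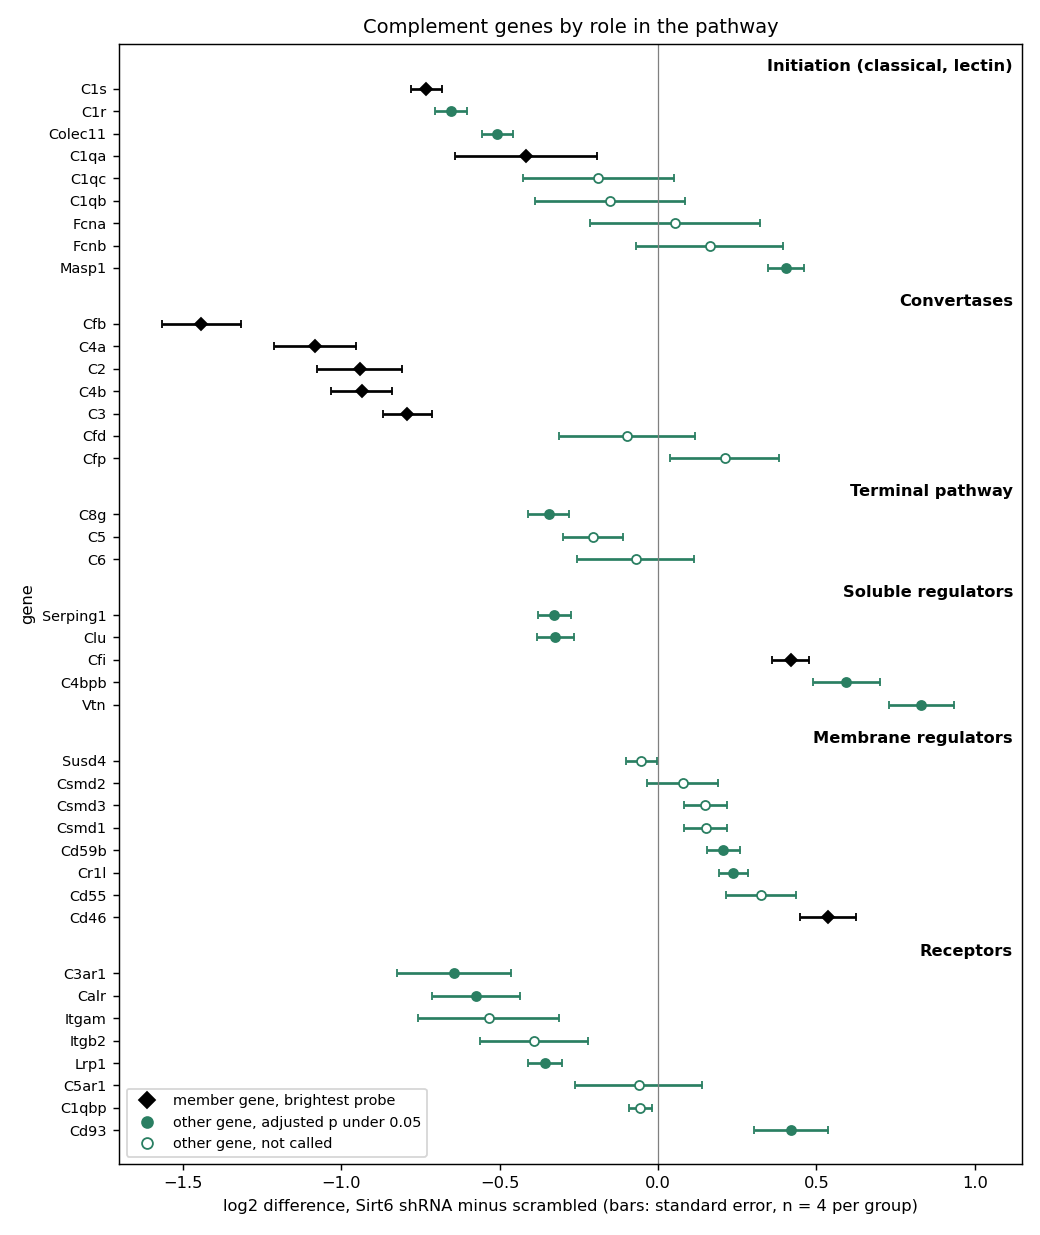
Log2 differences (Sirt6 shRNA minus scrambled, horizontal axis) of complement genes grouped by role where reported, with bars for the standard error (n = 4 per group); black diamonds are the chosen genes on their brightest probe, filled circles other genes called at an adjusted p under 0.05 and open circles those not called; C5ar2, known only by a bound, is not drawn. The convertase genes Cfb, C4a, C2, C4b and C3 and the proteases C1s and C1r lie farthest left, and Vtn, C4bpb, Cd46, Cd93 and Cfi lie to the right.

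Among the starters of the cascade other than the chosen genes, 2 of 7 fell and 1 rose, beside 14.8% and 15.6% of all genes tested. Besides C1r, Colec11, a collectin of the lectin route, fell by 0.51 ± 0.050 (SE; limma adjusted p = 0.00029), from -1.63 to -1.50 in the scrambled arrays to -2.11 to -1.97. Masp1, the protease of the lectin route, rose by 0.40 ± 0.057 (limma adjusted p = 0.0016) on its brightest probe, from 1.62 to 1.72 up to 1.99 to 2.21. Its other probe gave -0.12, so the probes of Masp1 disagreed.

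The convertase step beyond the chosen genes has Cfd, the protease that cuts factor B, and Cfp, properdin, which steadies the alternative convertase. Neither was called (Cfd -0.10 ± 0.21, limma adjusted p = 0.764; Cfp 0.21 ± 0.17, limma adjusted p = 0.395). On both, Sirt6 shRNA replicate 2 was the highest of all 8 arrays. In the terminal pathway 1 of 3 genes fell and 0 rose, beside 14.8% and 15.6% of all genes tested. C8g, a chain of C8, fell by 0.35 ± 0.066 (limma adjusted p = 0.0060), while C5, from which the pore assembles, missed the threshold at -0.21 ± 0.094 (limma adjusted p = 0.137).

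Of 5 soluble regulators, 2 fell and 2 rose, beside 14.8% and 15.6% of all genes tested. Serping1, the inhibitor of C1r and C1s, fell by 0.33 ± 0.052 (limma adjusted p = 0.0027) and lay at 7.16 to 7.32 against 6.81 to 6.96. Clu, clusterin, which blocks pore assembly, fell by 0.32 ± 0.057 (limma adjusted p = 0.0043). Vtn, vitronectin, which also blocks the pore, rose by 0.83 ± 0.10 (limma adjusted p = 0.00086), from -2.84 to -2.34 up to -1.87 to -1.66. C4bpb, a chain of the C4b-binding cofactor for factor I, rose by 0.59 ± 0.10 (limma adjusted p = 0.0042). These 4 genes did not overlap between the groups and were called whichever array was left out.

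Of 7 membrane regulators 2 rose and 0 fell, or 28.6% called, which is near the 30.4% of all genes tested (15.6% higher and 14.8% lower). Cr1l, the rodent regulator Crry, which lies next to Cd46, rose by 0.24 ± 0.046 (limma adjusted p = 0.0067), and its other probe gave 0.10. Cd59b, which stops the pore on the cell's own membrane, rose by 0.21 ± 0.052 (limma adjusted p = 0.0203) and lost its call without Sirt6 shRNA replicate 1 (limma adjusted p = 0.0561) or 3 (0.0570). Cd55, which breaks up convertases, missed the threshold on its brightest probe (0.33 ± 0.11, limma adjusted p = 0.0566), while its other probes gave 0.51 and 0.61; it is named because its probes differ and was chosen after its values were seen.

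Among 9 receptor genes 4 were called lower and 1 higher, beside 14.8% and 15.6% of all genes tested. One of the 4, C5ar2, a receptor for C5a, was not well above background on any Sirt6 shRNA array. It met the filter through the scrambled arrays alone, so its call is no support for a difference. Its level is given only as a rough bound, 1.34-fold lower with the Sirt6 shRNA. For that bound each Sirt6 shRNA array entered at its own C5ar2 signal or at the dimmest signal found among well detected probes, whichever was brighter. The detection limit of the C5ar2 probe itself may lie above that dimmest signal, so the true difference may be smaller. C3ar1, the receptor for C3a, fell by 0.64 ± 0.18 (limma adjusted p = 0.0287), but the groups overlapped, with Sirt6 shRNA replicate 2 at -0.89 inside the scrambled range of -0.92 to -0.56, and only the fits without Sirt6 shRNA replicate 2 or scrambled replicate 3 kept the call (limma adjusted p up to 0.0755 in the other 6). Calr, calreticulin, which binds C1q, fell by 0.57 ± 0.14 (limma adjusted p = 0.0168), and Lrp1, a scavenger receptor that pairs with it, by 0.36 ± 0.054 (limma adjusted p = 0.0022). Cd93, once described as a C1q receptor, rose by 0.42 ± 0.12 (limma adjusted p = 0.0289), with overlapping groups, and only the fits without Sirt6 shRNA replicate 2 or scrambled replicate 4 kept that call (limma adjusted p up to 0.0732 in the other 6).

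C2, Cfb, C4a and C4b lie in the class III region of the major histocompatibility complex on chromosome 20. Their neighbours are described beside them, with no comparison drawn, since the complement genes were chosen by this contrast. In RefSeq order from Slc44a4 to C4b, 19 protein-coding genes that are not complement genes were tested. Of these 5 were called lower and 3 higher, beside 14.8% and 15.6% of all genes tested. The log2 differences of the 19 ran from -0.42 (Prrt1) to 0.33 (Cyp21a1) with a median of -0.0078. The genes on either side of the C2 and Cfb pair, Zbtb12 and Nelfe, gave 0.26 ± 0.099 and 0.05 ± 0.048, and neither was called (limma adjusted p = 0.0874 and 0.480). Those beside C4a gave -0.17 ± 0.048 for Stk19 (limma adjusted p = 0.0316, called in 2 of 8 fits without 1 array) and 0.33 ± 0.17 for Cyp21a1 (limma adjusted p = 0.191).

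**Figure D4:**
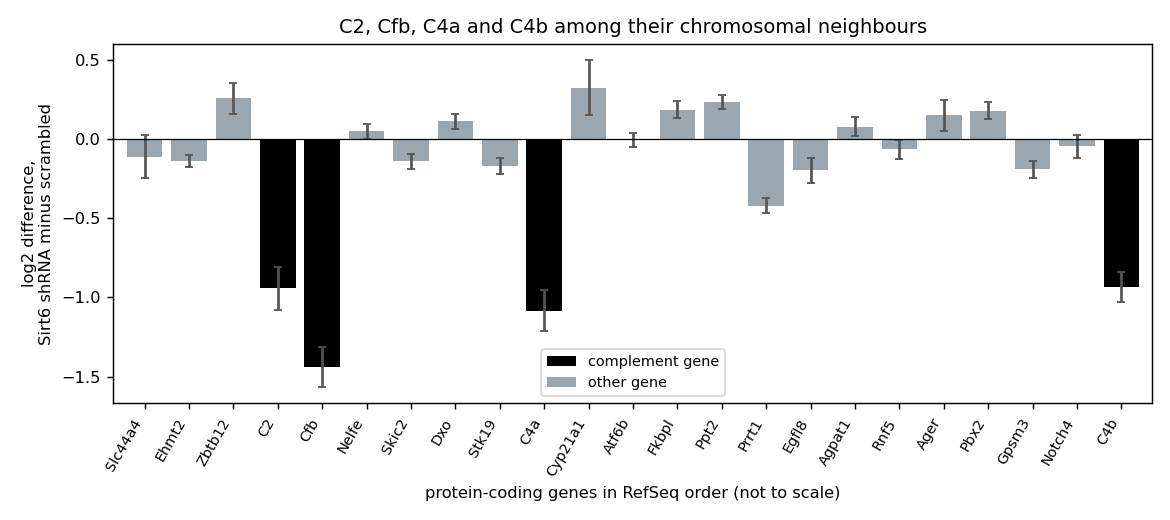
Bars give the log2 difference (Sirt6 shRNA minus scrambled) of each protein-coding gene tested from Slc44a4 to C4b, in RefSeq order and not to scale, with standard errors (n = 4 per group); black bars are complement genes. The bars of C2, Cfb, C4a and C4b reach from -0.94 to -1.44, and those of the 19 other genes lie between -0.42 and 0.33. The black bars are of genes chosen by this contrast, so no comparison is drawn.

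Genes switched on by known inducers of complement were examined beside it. Among all genes tested 14.8% were called lower and 15.6% higher. Of 15 NF-kB target genes 12 were called lower and 0 higher, with array means of 0.19 to 0.30 in the scrambled arrays and -0.29 to -0.11 in the Sirt6 shRNA arrays. Ccl2, a monocyte chemokine, fell by 1.29 ± 0.078 and Cxcl1, a neutrophil chemokine, by 0.67 ± 0.037 (limma adjusted p = 4.22e-05 and 3.05e-05). The cytokine gene Tnf fell by 0.72 ± 0.18 (limma adjusted p = 0.0210), called in 3 of 8 fits without 1 array (highest limma adjusted p = 0.0573). Of 13 genes of the acute phase and its C/EBP factors 7 were called lower and 0 higher. The protease inhibitor gene Serpina3n fell by 1.96 ± 0.097, the pentraxin gene Ptx3, whose product binds C1q, fell by 0.82 ± 0.066 and Hp, haptoglobin, fell by 0.78 ± 0.15. Of 15 interferon response genes 7 were lower and 0 higher, and Ifit3 fell by 1.30 ± 0.26, Irf7 by 0.95 ± 0.19 and Oas1a by 0.70 ± 0.16. With replicate 2 of both groups left out, 3 of the 15 interferon genes were called lower. In that fit 11 of the NF-kB targets and 6 of the acute phase genes were lower, beside 2620 of 22588 genes. The interferon array means overlapped between the groups, from -0.094 to 0.38 against -0.34 to 0.034. What part any of these pathways has in the complement differences was not tested.

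Over the 8 arrays, the gene whose pattern was most like that of C3 was Scn7a, a sodium channel family gene, with a root mean square difference of 0.052 between their log2 deviations from their own means. Gpam, which starts glycerolipid synthesis, followed at 0.058, then Sfxn5 at 0.060, Hsdl2 at 0.061 and Fbxo2 at 0.064. Their log2 differences between the groups lay from -0.82 to -0.76, close to the -0.79 of C3, which follows from the way they were picked. Among the chosen complement genes C1s was nearest to C3 at 0.10 and C4b next at 0.13, while Cfb, with its larger difference, lay at 0.36. C1qa lay at 0.32, which includes its high level on Sirt6 shRNA replicate 2.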

How the data were processed

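Total RNA of 8 samples was labelled with Cy3 and measured on one-colour Agilent arrays. The authors' spot intensity values are the output of Agilent Feature Extraction, version 11.5.1.1 (per the file headers and the submitters' processing notes), and were not normalized between arrays. The authors' deposited table of log2 values equals these intensities on the log2 scale minus 1 constant per array, which put its 75th percentile near 0, and served as an alternative. Its medians ran from -3.70 to -3.59.

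Outlier and control spots were left out, spots of a probe were averaged in log2, and each array's 75th percentile was subtracted. Probes well above background on at least 4 of 8 arrays were kept. The brightest kept probe stood for a gene. Probes of the 9 chosen genes were each kept apart. Names came from a RefSeq table (GRCr8) for 21102 probes by systematic name, 2631 by another accession, 352 by a former symbol and 5166 by the current one, and 16347 kept the name in the file. The comparison used limma 3.58.1 under R 4.3.3 (lmFit, eBayes, two-sided, Benjamini-Hochberg over all genes or, for probe counts, all probes, threshold 0.05), which was tested on simulated data. The number of arrays limits the precision.

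One gene of the lists was tested and counted but is not reported here. The genes and lists were chosen with earlier results of these data known. Named beyond the 9 genes were Sirt6, defining cell markers, in each complement role list up to 4 called genes of largest difference (or, with fewer than 2 called, the 2 lowest in p), up to 3 called genes in each further list, and the 5 genes nearest to C3. Alternatives covered background correction, scaling, filters, the choice of probe, eBayes options, the replicate block and the omission of arrays. Scaling on 7 bright spike-in probes, and leaving out replicate 2 of both groups, were added after seeing the data.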

Additional observations from a re-analysis of the deposited data

Results flagged for a closer look

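Of 114 sets of 4 arrays examined, over the probes of the 9 genes, the other complement genes reported and the means of the marker lists, 4 held 1 array far from the remaining 3, by the gap to the nearest array as a share of the whole range against Dixon's critical value. Chance flags about 1 in 20 such sets. Sirt6 shRNA replicate 2 was the high array in 2 of them, C1qc (0.835) and Cfp (0.839). Cd46 on probe A_43_P11967 had scrambled replicate 3 high (0.848) and Cd59b had scrambled replicate 1 low (0.920).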

How the results depend on the processing

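Over 18 alternatives the 13 probes gave 233 values, of which 227 moved by less than the spread between replicates, 6 moved more and 0 of the called ones changed sign. Of those 6, 5 came from normexp correction of dim probes (-0.66 for C4b A_44_P1084889, -0.59 for C4a, 0.32 for Cfi, and 0.30 and 0.12 for the Cd46 probes A_43_P11967 and A_44_P1070589) and 1 from spike-in scaling (-0.66 for C1s A_44_P332422). Spike-in scaling left 3270 genes called, 64.0% of them higher against 51.3% in the main setting and 35.2% with median centring, moved the median of all genes to 0.095, and called 5 other complement genes lower and 3 higher. Omitting 1 array at a time gave 7 to 14 other complement genes lower, with 14 without Sirt6 shRNA replicate 2. Leaving out replicate 2 of both groups gave 12 lower and 6 higher.

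Same-numbered replicates deviated together weakly (r = 0.064, 0.16, 0.13 and 0.033 across genes for numbers 1 to 4, beside highest values of 0.12, 0.061, 0.080 and 0.050 with another number). Numbers 2 and 3 were above 0.1 and numbers 1 and 4 were not, so the numbers were not taken to pair the samples. For C1qa, C2, Cfb and the microglia mean, however, replicate 2 was the highest array of both groups. An effect shared by same-numbered arrays, which also shared a slide column, was therefore not excluded for these genes. With the replicate block 6425 genes were called, and 12 other complement genes were lower and 5 higher. The block narrowed the SE of C1qa from 0.225 to 0.111 and that of Cfb from 0.125 to 0.049. It widened the SE of Cd46 probe A_44_P1070589 from 0.155 to 0.175. Probes near background, such as those of Cd46 and the dim C4 probes, limit what the arrays resolve.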
